A study of Mus musculus with 8 samples.

Results

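The transcripts of 7 genes that receive and transmit the Hedgehog signal, *Ptch1*, *Smo*, *Hhip*, *Gli1*, *Gli2*, *Gli3* and *Sufu*, were followed in primary murine articular chondrocytes with and without IL-1β. They were taken by name from a table of 54658 gene symbols, in which all 7 were found once, and all 7 were among the 14404 genes tested. The cells came from cartilage of the femoral heads of wild-type mice aged 3 weeks and were grown in medium with serum. One group of 4 samples received 1 ng/mL of IL-1β for 24 h, and the other 4 samples received vehicle for the same time. How many mice contributed to a sample, and whether the samples are separate cultures, is not given in the sources used here, so that p-values measure the spread between these samples only.

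Hedgehog ligands bind the receptor Patched 1, which otherwise holds the membrane protein Smoothened inactive. Active Smoothened, acting in the primary cilium, frees the GLI transcription factors from their inhibitor SUFU, so that less of GLI3 is cut to a repressor and more of GLI2 acts as an activator. *Gli1*, *Ptch1* and *Hhip* are themselves transcribed in response to GLI activators, and *Gli1* is the usual transcript readout of the pathway. In growing cartilage the ligand is Indian hedgehog, made by prehypertrophic chondrocytes, which controls the pace of hypertrophy together with parathyroid hormone-related protein.

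IL-1β-treated chondrocytes had less *Gli1*, *Hhip*, *Gli2* and *Smo* mRNA and more *Gli3*, *Ptch1* and *Sufu* mRNA than vehicle-treated cells. The largest change was that of *Gli1*, at 3.10-fold lower with IL-1β (95% confidence interval 2.16 to 4.46). *Hhip* was 1.66-fold lower, *Smo* 1.46-fold lower and *Gli2* 1.45-fold lower. The 3 rises were smaller, from 1.16-fold for *Sufu* to 1.24-fold for *Gli3*. All 7 genes passed an adjusted p-value of 0.05 in edgeR's quasi-likelihood test, where 40.2% of all genes tested did so. The 3 genes that rose stand against 20.4% of all genes tested that rose, and the 4 that fell against 19.8% that fell. *Gli1* alone was a differentially expressed gene (DEG), defined by a log2 fold change above 1 or below -1 besides the adjusted p-value. Among all genes tested, 5.21% were DEGs in either direction and 2.35% were downregulated DEGs. For each of the 7 genes, all 4 samples of a group lay on the same side of all 4 samples of the other, which was so for 36.8% of the genes tested. *Gli1* entered the test only through its vehicle samples, so that it gives no support to these counts of genes. The 7 genes were also chosen with earlier results of these data known, which limits what can be read from the comparison with all genes tested. An exact permutation test (two-sided) gave p = 0.0286 for each gene, the smallest p that 4 samples against 4 allow. In such bulk RNA, fewer cells that express a gene and less of its mRNA per cell cannot be told apart.

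**Figure D1:**
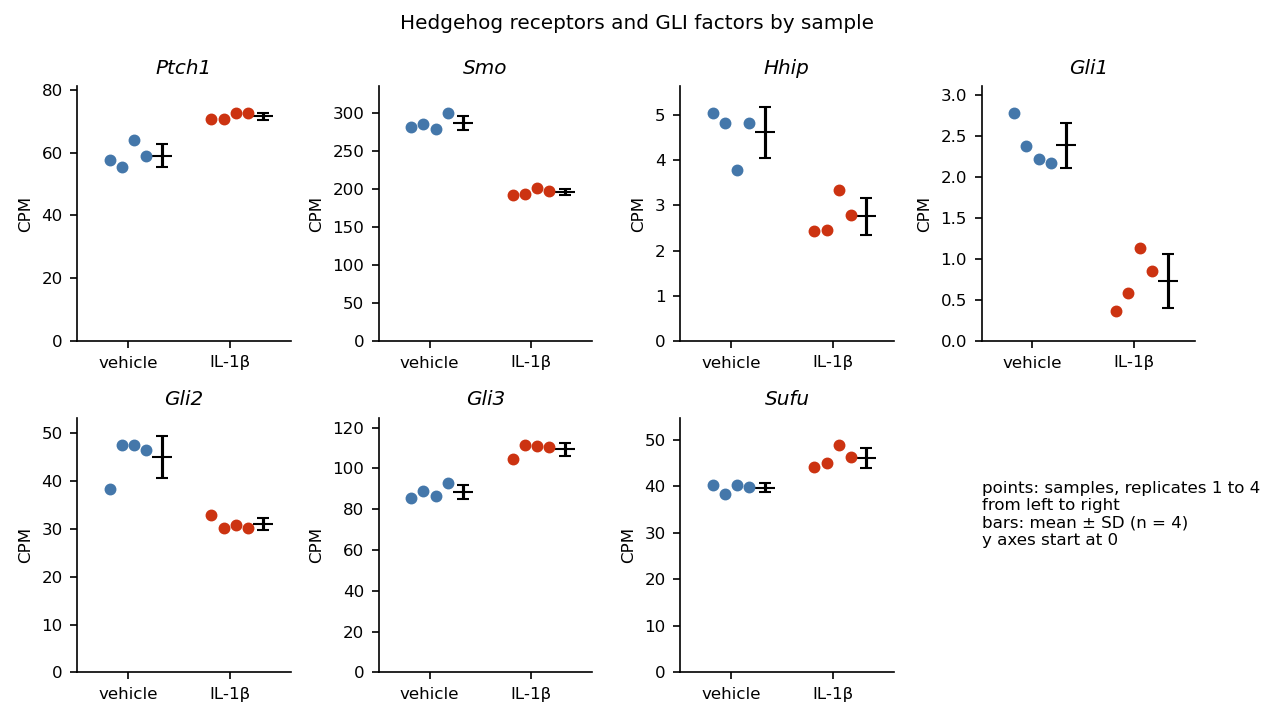
Counts per 1000000 counts (CPM, linear axes from 0) of the 7 genes in each of the 4 vehicle (blue) and 4 IL-1β (red) samples, with the mean and SD of each group as bars (n = 4). In every panel the groups are separate: *Smo*, *Hhip*, *Gli1* and *Gli2* are lower with IL-1β, and *Ptch1*, *Gli3* and *Sufu* are higher.

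Total counts were 10992355 to 17104351 with IL-1β and 13970959 to 17456063 with vehicle, and 3 counts, taken as the smallest number that shows a transcript, equal 0.172 to 0.273 CPM. Of 10 markers of articular chondrocytes all were detected, and the cartilage collagen *Col2a1* fell from 11228 ± 196 to 2853 ± 117 CPM (SD, n = 4). Summed, they reached 6164 to 6693 CPM in treated samples against 17042 to 17628 CPM, with 9 markers lower and 1 higher, *Prg4*. Among all genes tested, 19.8% were lower and 20.4% higher. Markers of endothelial cells summed to at most 1.25 CPM in any sample, with none of 5 tested. The 6 leukocyte markers summed to 15.9 to 19.0 CPM after IL-1β, against 11.5 to 12.6 CPM, with 2 tested (*Cd68* higher, and *Lyz2* lower with an adjusted p of 0.0364 in edgeR that was lost in 7 of 14 alternative settings), while *Ptprc*, the common leukocyte antigen, had means of 0.149 and 0.107 CPM. The 7 markers of fibroblasts and perichondrium summed to 69.7 to 74.7 CPM after IL-1β, against 61.1 to 63.0 CPM, with 3 tested (2 higher, 1 lower) and *Dpt* and *Postn* among the 4 under the filter. The part of these shifts in the changes of the 7 genes was not tested.

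Promoter sequence, 250 bases before to 50 bases after a transcript start, was available from RefSeq (GRCm38.p6) for *Ptch1*, *Smo*, *Hhip*, *Gli2*, *Gli3* and *Sufu*. These were searched on both strands for the GLI consensus GACCACCCA. None of the 6 held it, and 0.253% of all 32851 promoters did. Its inner letters CCACCC, or GGGTGG on the other strand, were in 4 of the 6 and in 31.5% of all promoters, and ACCACCC was in that of *Gli2* and in 4.61% of all. The stretches with these letters in capitals are shown for the 3 genes that fell and for *Gli3*, which rose, each 5′ to 3′ on the gene's strand.
Gli2, chr1:119053807-119053836, minus strand: aatccccctccaGGGTGGtgtccccccacc
Smo, chr6:29735323-29735352, plus strand: tcccgaatacccCCACCCcagccccttcgg
Hhip, chr8:80058149-80058178, minus strand: cgcagccggaggCCACCCtgggccccggcg
Gli3, chr13:15463541-15463570, plus strand: gggacggggcggGGGTGGgggcgcgcgagg
The letters begin 205, 162, 158 and 170 bases before the RefSeq transcript start of *Gli2*, *Smo*, *Hhip* and *Gli3*, respectively. For *Gli3* that start lies inside the GENCODE span of the gene, and the window with it. The *Ptch1* promoter, 63565686 to 63565985, also lies wholly inside the span of its gene. On the minus strand that span begins at 63573598, and sequence there was not searched. *Gli2* held a second copy beginning 192 bases before its start. The promoters are rich in G and C, from 56.3% in *Sufu* to 76.3% in *Ptch1*, neither of which held the inner letters. The letters occurred in genes that fell and in a gene that rose, and a match is not evidence of binding.

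*Ptch1*, which encodes the ligand-binding receptor, lies on chromosome 13 from 63508328 to 63573598 (GRCm38, minus strand). Its abundance was 70.8, 70.6, 72.5 and 72.6 CPM in IL-1β replicates 1 to 4 and 57.6, 55.4, 64.0 and 59.0 CPM in vehicle replicates 1 to 4. The IL-1β samples were close to each other, and vehicle replicate 3 came nearest to them without reaching them. The mean rose from 59.0 ± 3.66 CPM to 71.6 ± 1.07 CPM (SD, n = 4), or a difference of 0.28 ± 0.0429 (SE) on the log2 scale (edgeR, adjusted p = 3.37e-06).

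*Hhip* encodes a membrane protein that binds Hedgehog ligands and keeps them from the receptor, and lies on chromosome 8 from 79965851 to 80058006 (minus strand). It measured 2.44, 2.46, 3.34 and 2.77 CPM in the 4 treated samples and 5.04, 4.81, 3.79 and 4.81 CPM in the 4 vehicle samples. These values rest on 27 to 56 reads with IL-1β and 53 to 87 reads with vehicle, and the highest IL-1β sample and the lowest vehicle sample, both replicate 3, were near each other. The mean fell from 4.61 ± 0.557 CPM to 2.75 ± 0.418 CPM (SD, n = 4), or a difference of -0.73 ± 0.154 (SE) on the log2 scale (edgeR, adjusted p = 0.0003). *Ptch1* and *Hhip*, both known targets of GLI activators, thus moved in opposite directions.

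*Smo*, on chromosome 6 from 29735503 to 29761365 (plus strand), encodes Smoothened, the transducer of the signal. It measured 192, 193, 201 and 198 CPM in the 4 treated samples and 282, 286, 280 and 300 CPM in the 4 vehicle samples. The spread within either group was small beside the gap between them. The mean fell from 287 ± 9.12 CPM to 196 ± 3.95 CPM (SD, n = 4), or a difference of -0.55 ± 0.0321 (SE) on the log2 scale (edgeR, adjusted p = 2.1e-14), the smallest p-value of the 7 genes.

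*Sufu*, on chromosome 19 from 46396896 to 46488804 (plus strand), encodes the cytoplasmic inhibitor of the GLI factors. It measured 44.0, 44.9, 48.9 and 46.3 CPM in the 4 treated samples and 40.3, 38.3, 40.1 and 39.9 CPM in the 4 vehicle samples. The mean rose from 39.7 ± 0.924 CPM to 46.0 ± 2.12 CPM (SD, n = 4), or a difference of 0.22 ± 0.0454 (SE) on the log2 scale (edgeR, adjusted p = 0.000248). This was the smallest change of the 7, and 38.1% of all genes tested had a larger one in either direction.

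*Gli1*, on chromosome 10 from 127329882 to 127341974 (minus strand), encodes a GLI factor that acts as an activator. It was counted 4, 8, 19 and 12 times after IL-1β and 48, 41, 31 and 33 times after vehicle, which is 0.362, 0.579, 1.13 and 0.854 CPM against 2.78, 2.38, 2.22 and 2.18 CPM. The transcript was scarce in both groups and scarcest in IL-1β replicate 1, just above the smallest number that shows a transcript. The mean fell from 2.39 ± 0.275 CPM to 0.732 ± 0.334 CPM (SD, n = 4), or a difference of -1.63 ± 0.255 (SE) on the log2 scale (edgeR, adjusted p = 5.49e-06). Only 1.97% of the genes tested had a larger change in either direction. *Gli1* passed the filter on low counts through its vehicle samples, since a single IL-1β sample exceeded 1 CPM, so that its call is no support for the count of genes called. Of its exon bases, 6.55% also belong to *Arhgap9* or *Gm47200* on the other strand, which had 9 to 24 and 0 to 1 reads per sample, respectively.

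*Gli2*, the main activator of the pathway, lies on chromosome 1 from 118834132 to 119053619 (minus strand). It measured 32.9, 30.2, 30.8 and 30.2 CPM in the 4 treated samples and 38.4, 47.5, 47.6 and 46.5 CPM in the 4 vehicle samples. Vehicle replicate 1 lay below the other vehicle samples, towards the IL-1β samples, and without it the log2 fold change was -0.61 in place of -0.54. The mean fell from 45.0 ± 4.42 CPM to 31.0 ± 1.30 CPM (SD, n = 4; SE of the log2 difference 0.0597; edgeR, adjusted p = 1.6e-08).

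*Gli3*, on chromosome 13 from 15463235 to 15730026 (plus strand), encodes the factor that serves mainly as a repressor when no ligand is bound. It measured 104, 112, 111 and 110 CPM in the 4 treated samples and 85.4, 89.0, 86.6 and 92.8 CPM in the 4 vehicle samples. The mean rose from 88.5 ± 3.27 CPM to 109 ± 3.31 CPM (SD, n = 4), or a difference of 0.31 ± 0.0363 (SE) on the log2 scale (edgeR, adjusted p = 4.89e-08). Of its exon bases, 1.96% are shared with *Gm6556* on the other strand, which had 27 to 69 reads per sample against 1155 to 1862 for *Gli3*. Counts of *Gli3* mRNA do not show how much of the protein is full length or cut to the repressor.

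Levels were compared between genes as TPM, in which counts are divided by the listed exon length and scaled to a sum of 1000000 per sample. With vehicle, *Smo* was the most abundant at 142 ± 1.41 TPM (SD, n = 4), above 94.7% of the genes tested. *Gli3* followed at 25.7 ± 0.34 TPM, *Gli2* at 18.3 ± 1.67 TPM, *Sufu* at 15.9 ± 0.581 TPM and *Ptch1* at 11.6 ± 0.786 TPM. *Hhip* at 1.42 ± 0.173 TPM and *Gli1* at 1.34 ± 0.181 TPM came last, and their samples overlapped, as did those of *Gli2* and *Sufu*, so that the order within these pairs is not resolved. With IL-1β the order was *Smo* (94.2 ± 1.23 TPM), *Gli3* (30.8 ± 0.671), *Sufu* (17.9 ± 0.43), *Ptch1* (13.6 ± 0.233), *Gli2* (12.2 ± 0.823), *Hhip* (0.817 ± 0.105) and *Gli1* (0.392 ± 0.17), all in TPM, and no neighbours in it overlapped. *Gli2* thus lay above *Ptch1* in the vehicle order and below it in the IL-1β order. *Smo* remained the most abundant of the 7 in every sample, 5.53-fold above *Gli3* with vehicle and 3.06-fold above it with IL-1β.

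**Figure D2:**
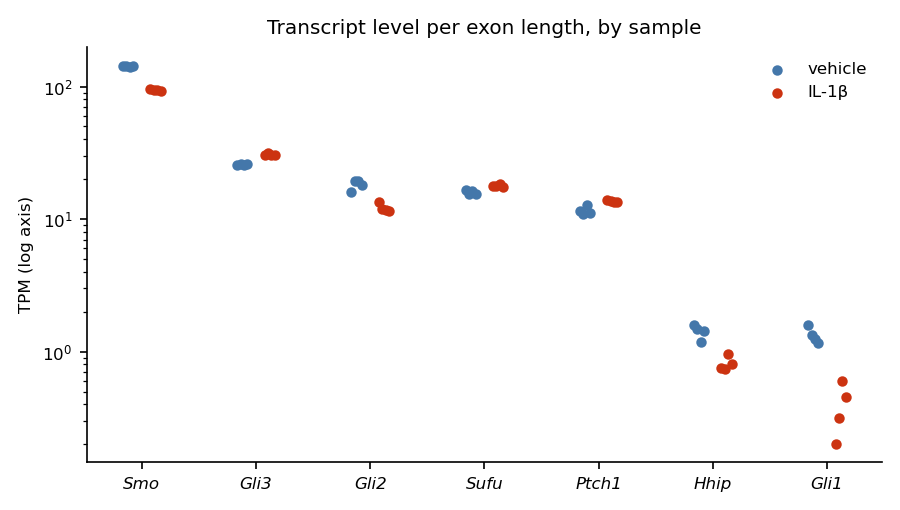
Level of each gene in TPM (log axis), with a point for each of the 4 vehicle (blue) and 4 IL-1β (red) samples, ordered by the vehicle mean. *Smo* is highest at 142 TPM with vehicle and 94.2 TPM with IL-1β, and *Gli1* is lowest in the IL-1β samples, which lie below all vehicle samples.

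The makeup of the GLI mRNA was compared within each sample, as shares of the summed TPM of the 3 GLI genes. *Gli3* made up 69.1, 72.1, 71.1 and 71.6% with IL-1β and 59.2, 55.6, 55.1 and 57.3% with vehicle. *Gli2* made up 28.1 ± 1.53% with IL-1β and 40.3 ± 2.25% with vehicle (SD, n = 4). *Gli1* contributed 0.908 ± 0.407% and 2.96 ± 0.503%, respectively. *Gli3* was the major GLI transcript in all 8 samples, and its share was larger in every IL-1β sample than in any vehicle sample. The shares describe mRNA per length and not the proteins.

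**Figure D3:**
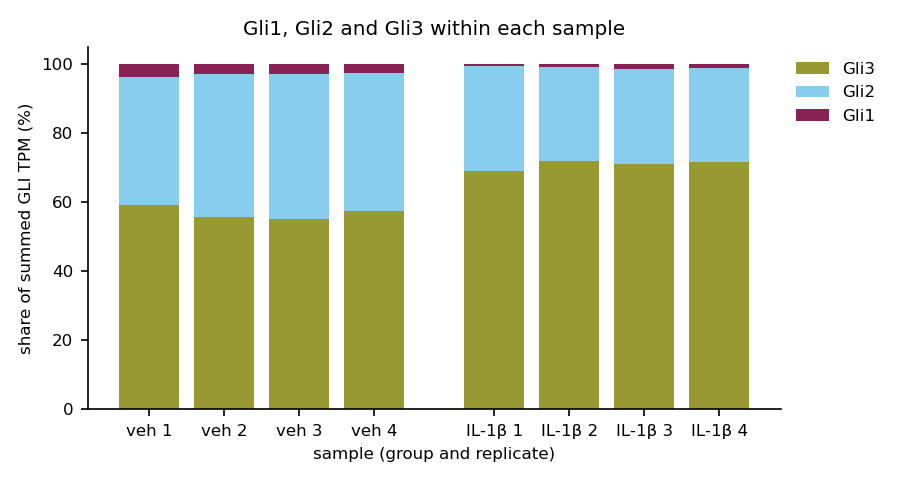
Share of *Gli3*, *Gli2* and *Gli1* in their summed TPM (percent, linear axis from 0) in each vehicle and IL-1β sample. The *Gli3* share is 55.1 to 59.2% in the vehicle samples and 69.1 to 72.1% in the IL-1β samples.

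Whether the genes moved by different amounts was asked from log2 ratios of counts within a sample, with 0.5 added to each count, which need no scaling between samples. Of 21 pairs of genes, 12 join a gene that rose and a gene that fell, and their ratios could not overlap between the groups because neither gene did, so that they are given as values and not as tests. Of the 9 pairs of genes that moved the same way, the 3 pairs of *Gli1* with *Smo*, *Hhip* and *Gli2* did not overlap, each with p = 0.0286 (exact permutation test, two-sided). Adjusted over these 9 pairs the p-value was 0.0857, and over all 21 pairs, with the 12 whose outcome was fixed, it was 0.04, so that a larger fall of *Gli1* was not resolved by this test. It also rests on the 4 to 19 reads of *Gli1* per IL-1β sample, a gene that was tested only through its vehicle samples. The *Gli1* to *Gli3* ratio fell by 2.06 on the log2 scale and the *Gli1* to *Gli2* ratio by 1.22, in mean. The ratio of *Gli2* to *Gli3* fell by 0.838, from a mean of -0.979 ± 0.128 to -1.82 ± 0.103 (SD, n = 4), and that of *Ptch1* to *Smo* rose by 0.83. In the other 6 pairs the groups overlapped. Among the genes that rose, the ratio of *Ptch1* to *Gli3* differed by -0.02 (exact permutation test, p = 0.771). Among those that fell, the ratio of *Smo* to *Gli2* differed by -0.02 (exact permutation test, p = 0.8) and that of *Smo* to *Hhip* by 0.19 (exact permutation test, p = 0.171). A difference of the size seen for *Hhip* was not resolved at its read numbers. No order among *Smo*, *Hhip* and *Gli2*, or among *Ptch1*, *Gli3* and *Sufu*, was resolved.

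**Figure D4:**
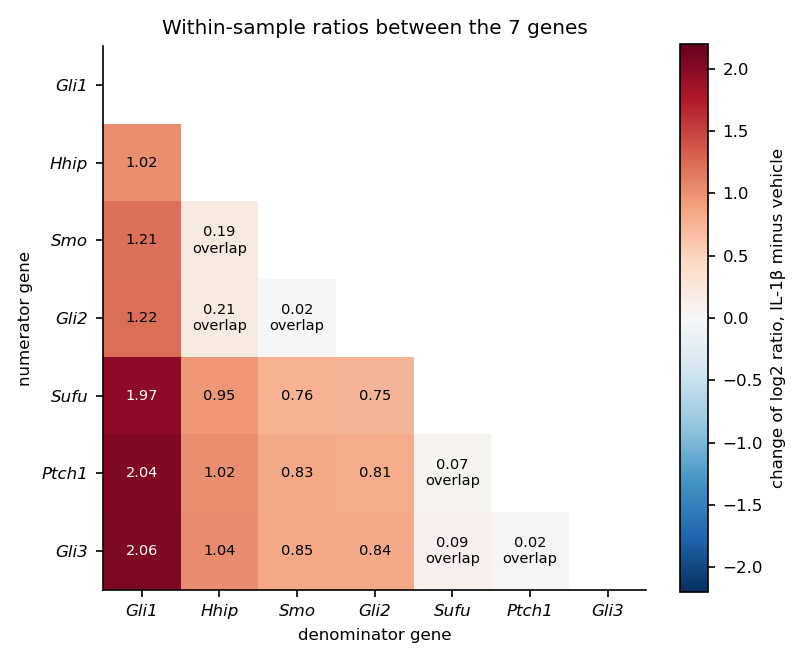
Change of the within-sample log2 ratio between the gene of a row (numerator) and of a column (denominator), IL-1β minus vehicle, as means of 4 samples per group; "overlap" marks pairs whose groups overlapped. The pairs with *Gli1* differ by 1.02 to 2.06 in size, those of *Hhip*, *Smo* or *Gli2* with *Sufu*, *Ptch1* or *Gli3* by 0.746 to 1.04 in size, which their opposite directions fix as separate, and the 6 pairs that overlapped by 0.016 to 0.206 in size.

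Of the ligands, *Ihh*, which encodes Indian hedgehog, was counted 2, 6, 0 and 4 times after IL-1β and 20, 14, 11 and 13 times after vehicle. It was under the filter, and a fit of all genes gave a difference of -2.04 on the log2 scale (edgeR, adjusted p = 5.62e-05). *Dhh*, for desert hedgehog, had 0 to 1 reads with IL-1β and 0 to 5 with vehicle, and *Shh*, for sonic hedgehog, had 1 read in all 8 samples together. All 3 ligand genes were thus at or near the smallest number that shows a transcript in the IL-1β samples. Of the 8 genes for ligands and their release, 4 were tested, and 2 rose and 1 fell, where 20.4% of all genes tested rose and 19.8% fell. Their median log2 fold change was 0.30, against -0.0012 over all genes tested. *Scube1*, which encodes a secreted protein of the family that helps release ligand, fell from 23.9 ± 2.05 CPM to 6.93 ± 0.601 CPM (SD, n = 4; log2 fold change -1.78, adjusted p = 5.7e-16, edgeR). Its relative *Scube3* rose by 0.59 on the log2 scale, from 7.82 ± 0.853 to 11.7 ± 0.577 CPM. *Hhat*, the acyltransferase that attaches palmitate to the ligands, rose by 0.60, from 5.85 ± 0.898 to 8.86 ± 0.927 CPM.

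Of 5 genes for other ligand-binding proteins of the cell surface, all tested, 3 fell and 0 rose, with a median log2 fold change of -0.73. Among all genes tested, 19.8% fell and 20.4% rose. The co-receptor *Cdon* fell from 315 ± 11.1 CPM to 190 ± 10.1 CPM (SD, n = 4; log2 fold change -0.73, adjusted p = 6.63e-16, edgeR). Its paralog *Boc* fell from 104 ± 3.24 CPM to 61.2 ± 4.14 CPM (log2 fold change -0.76). *Lrp2* had a log2 fold change of -0.79 on 1.44 and 2.51 CPM. The third co-receptor, *Gas1*, differed little in level, with 86.4 ± 9.00 CPM after IL-1β against 88.2 ± 3.05 CPM, and did not pass the test (edgeR, adjusted p = 0.724).

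Of 23 regulators that act between Smoothened and the GLI factors, 8 rose, 1 fell and 14 did not pass the test, with a median log2 fold change of 0.10. The 9 called of 23 are close to the 40.2% of all genes tested that were called. *Arrb1*, a β-arrestin that also binds many other receptors, rose from 4.77 ± 0.445 CPM to 18.9 ± 1.45 CPM (SD, n = 4; log2 fold change 1.97, adjusted p = 5.42e-16, edgeR) and was the single DEG of the list. *Arrb2* rose by 0.50 and *Stk36*, a kinase related to fly Fused, by 0.64, both on the log2 scale, although single samples of *Stk36* overlapped between the groups. *Kif7*, the kinesin of the ciliary tip, fell from 17.3 ± 1.83 CPM to 14.1 ± 1.02 CPM (log2 fold change -0.29, adjusted p = 0.006, edgeR). The kinase subunits *Prkaca* and *Prkacb* and casein kinase *Csnk1a1*, whose products phosphorylate GLI factors, had log2 fold changes of 0.01, 0.0003 and 0.03, and none of the 3 passed the test.

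Of 14 other genes described as targets of GLI factors in various tissues, 9 were tested. Of these, 4 rose, 3 fell and 2 did not pass the test, with a median log2 fold change of 0.10. Among all genes tested, 20.4% rose and 19.8% fell. *Foxf1*, a forkhead factor, rose from 9.99 ± 0.992 CPM to 21.8 ± 1.84 CPM (SD, n = 4; log2 fold change 1.13, adjusted p = 4.97e-12, edgeR), and *Foxc2* rose by 0.41 on the log2 scale. The cyclins *Ccnd1* and *Ccnd2* fell by 0.61 and 0.39 on the log2 scale. *Pthlh*, for parathyroid hormone-related protein, was under the filter, with 2 to 4 reads with IL-1β and 6 to 11 reads with vehicle. A fit of all genes gave it a log2 fold change of -1.12, which was not called (edgeR, adjusted p = 0.125). Of the 5 genes under the filter, only *Foxf2* was called in that fit, and it rose by 1.14 on the log2 scale (edgeR, adjusted p = 0.0178). It had 7 to 19 reads with IL-1β and 5 to 9 reads with vehicle. The targets therefore did not move in a common direction, as *Ptch1*, *Hhip* and *Gli1* did not among themselves. Of 25 genes tested for intraflagellar transport and ciliary motors, on which the pathway depends, 7 rose, 0 fell and 18 did not pass the test, with a median log2 fold change of 0.07. The share called was below the 40.2% of all genes tested, and 20.4% of all genes tested rose. The largest of these rises were those of *Ift74* (0.43), *Ift80* (0.40) and *Ift57* (0.39), as log2 fold changes.

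**Figure D5:**
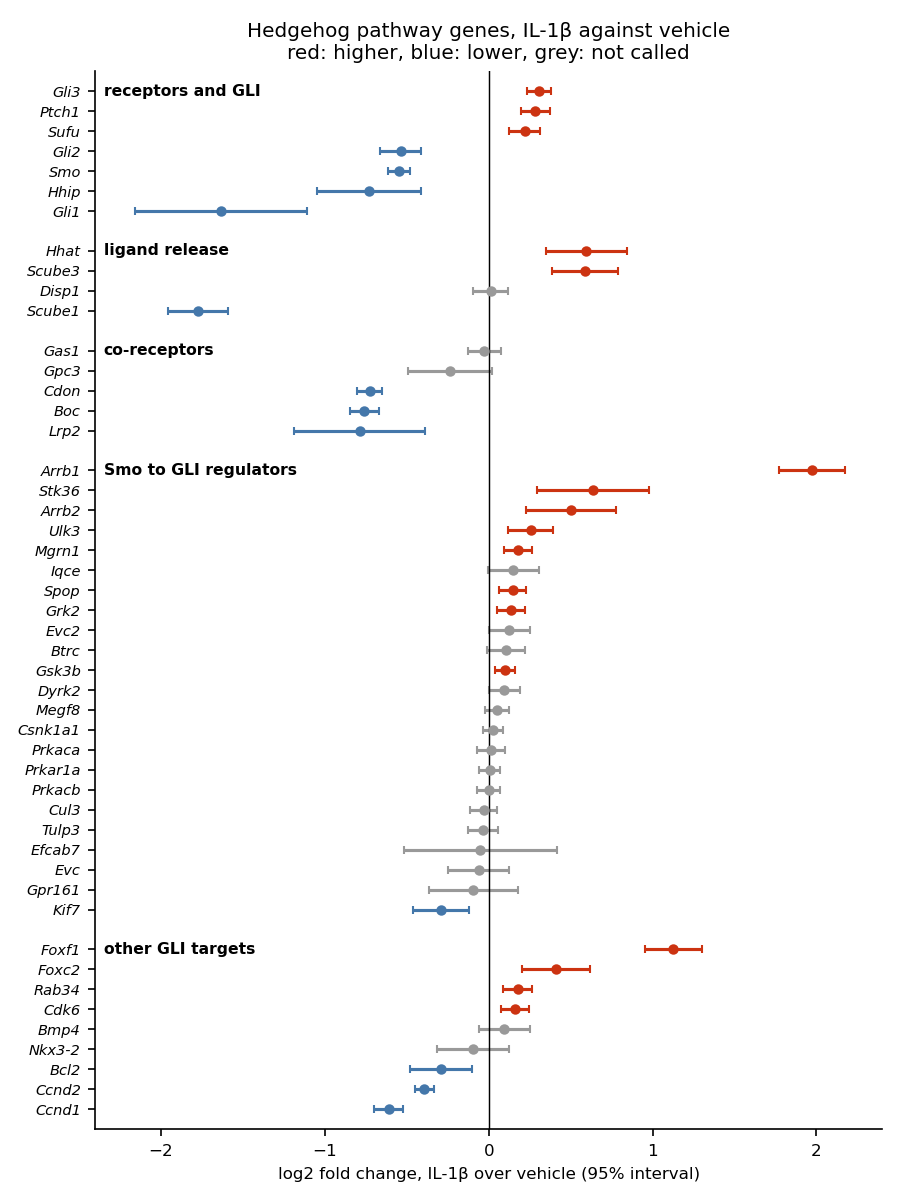
Log2 fold change of IL-1β over vehicle with its 95% confidence interval for the 7 genes and for the tested genes of 4 other groups of the pathway (4 samples per group; red higher and blue lower at an adjusted p-value under 0.05, grey not called). *Gli1* at -1.63 and *Scube1* at -1.78 lie furthest to the left, and *Arrb1* at 1.97 and *Foxf1* at 1.13 furthest to the right.

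Of 9 markers of prehypertrophic and hypertrophic chondrocytes, 8 were tested, of which 7 fell and 1, *Spp1*, rose. Among all genes tested, 19.8% fell and 20.4% rose. *Pth1r*, the receptor for parathyroid hormone-related protein, fell from 98.8 ± 4.59 CPM to 27.3 ± 1.90 CPM (SD, n = 4), and *Col10a1*, the hypertrophic collagen, fell from 102 ± 4.17 CPM to 12.7 ± 0.986 CPM. The summed level of the 9 markers was nonetheless higher with IL-1β, at 2513 to 2662 CPM against 1766 to 1885 CPM, because *Spp1* made up most of it. The part of these shifts in the fall of *Gli1* and *Hhip* was not tested.

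The genes most like each of the 7 across the 8 samples were found by the root mean square difference of log2(CPM + 1), after each gene was centred on its mean, among 10352 genes with a mean of at least 5 CPM. For *Gli1* these were *Cd24a* (0.0944) and *Dlk1* (0.108), and 1 gene lay within 0.1 of it. For *Hhip* they were *Rtl1* (0.0801) and *Cyp27a1* (0.0845), for *Smo* *Ldlrad3* (0.0261) and *Foxp2* (0.0298), and for *Gli2* *Ltbp4* (0.0586) and *Tuba1b* (0.0636). For the genes that rose they were *Snx30* and *Adam17* (*Ptch1*), *Sec14l1* and *Bcar1* (*Gli3*) and *Dlgap4* and *Dlg5* (*Sufu*), at 0.0164 to 0.0359. The number of genes within 0.1 was 1918 for *Sufu*, 1087 for *Gli3* and 1035 for *Ptch1* against 9 for *Hhip*, so that the likeness singles out little for the genes with small changes. The measure is a description over 8 samples in 2 groups, and at low CPM the added 1 compresses differences.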

How the data were processed

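RNA-Seq of 8 samples was used. The authors used cutadapt for trimming, STAR (version 2.4.2a in the submitters' processing notes) for alignment to mm10 and featureCounts for counting. The methods name another version of STAR. The deposited values are counts without scaling, 1 row per symbol, beside exon lengths in bases. Whether the counts precede the batch correction named in the methods, and whether counting used strand, is not given in the sources used here.

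Samples were grouped by their labels. Counts were scaled by TMM and tested with edgeR 4.0.16 (limma 3.58.1, R 4.3.3) over 14404 genes that exceeded 1 CPM in 4 or more samples, with treatment as the only term and Benjamini-Hochberg adjustment over all genes tested. Standard errors and 95% confidence intervals of the log2 fold change were derived from the quasi-likelihood F statistic. TPM used the deposited counts and lengths. Ratios were tested with scipy 1.17.1. Positions came from GENCODE vM21 (GRCm38), which is not the release named in the methods. Its exon length equalled the deposited one for all members but *Sufu*. The tests were tried on simulated counts first. Alternatives were DESeq2 1.42.0, other scalings and filters, a replicate block, RUVs and leaving out each sample. The RUVs factor was computed without the published package, from log counts not scaled for depth, so that it may also follow depth. The 7 genes and all lists were chosen with earlier results of these data known. Named were all 7 genes, from each pathway list the DEGs and the largest called changes, up to 6 per list, from each marker list at most 3 genes with no rule of size, and the 2 most similar genes of each member. Genes named outside this rule (*Ihh*, *Dhh*, *Shh*, *Gas1*, *Pthlh*, *Foxf2*, *Prkaca*, *Prkacb*, *Csnk1a1*, *Arhgap9*, *Gm47200* and *Gm6556*) were chosen after their values were seen. Every gene with a sample flagged for a closer look is named besides, beyond these limits. Read counts do not tell PCR copies from separate molecules, so that the smallest number that shows a transcript covers counting error only.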

Additional observations from a re-analysis of the deposited data

Results flagged for a closer look

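In 2 of the 14 groups of 4 values of the 7 genes, Dixon's ratio of the gap of 1 sample to the whole range passed its 95% critical value, where chance gives about 1 in 20 groups, or 0.7 here. Vehicle replicate 1 was low for *Gli2*, with 38.4 CPM where the rest of its group had 46.5 to 47.6 CPM. IL-1β replicate 1 was low for *Gli3*, with 104 CPM where the rest of its group had 110 to 112 CPM. Both samples lie towards the other group, and without them the log2 fold changes of *Gli2* and *Gli3* were -0.61 and 0.33, in place of -0.54 and 0.31. By CPM, IL-1β replicate 1 was the lowest of its group for 5 of the 7 genes, and IL-1β replicate 3 the highest for 4. No vehicle sample was the lowest for more than 2 or the highest for more than 3. IL-1β replicate 1 also had the fewest total counts, 10992355, and the part of depth in this was not tested.

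Over 194 groups (the 7 genes, all tested genes of the lists and the total counts), 12 had such a sample, against 9.7 by chance. The co-receptors *Cdon* (175 CPM against 194 to 197) and *Boc* (55.1 against 62.7 to 64.2) were both low in IL-1β replicate 1, as were *Csnk1a1* (437 against 443 to 444 CPM) and *Hapln1* (253 against 267 to 268 CPM). *Hhat* (4.51 against 6.15 to 6.46 CPM) and *Mgrn1* (64.8 against 69.0 to 69.8 CPM) were low in vehicle replicate 1. In IL-1β replicate 3, *Iqce* (17.2 CPM, the rest 18.1 to 18.2 CPM) and *Prkacb* (88.5 CPM, the rest 92.8 to 93.5 CPM) were low. *Ift140* was high with 20.7 CPM in IL-1β replicate 4 (the rest 18.8 to 19.0 CPM), and *Comp* with 551 CPM in vehicle replicate 4 (the rest 525 to 529 CPM).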

How the results depend on the processing

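The 7 genes kept their direction and an adjusted p-value under 0.05 under DESeq2, DESeq2's size factors, the total library size, no filter on low counts, a CPM above 1 in all 8 samples, the replicate number as a block, 1 factor of unwanted variation (RUVs) and with each sample left out, except that *Gli1* was not tested where all 8 samples had to pass 1 CPM, which left 6 genes called and 0 DEGs among them. The log2 fold change of *Gli1* lay between -1.95 (without IL-1β replicate 3) and -1.43 (RUVs), that of *Hhip* between -0.85 and -0.61, and that of *Sufu* between 0.19 and 0.24. The number of DEGs among all genes was 751, and 1206 without a filter. Of the 2 leukocyte markers tested, both called, 1 was called with DESeq2, without a filter, with a CPM above 1 in all 8 samples and with the replicate block, and 1 to 2 with a sample left out (1 without IL-1β replicate 3 or 4 or vehicle replicate 1 or 3). The call lost was that of *Lyz2*, which was not tested at a CPM above 1 in all 8 samples. The count of pairs of genes with an adjusted p-value under 0.05 over all 21 was 15, also with a pseudocount of 1. It was 0 of 9 when only pairs that moved the same way were adjusted together, a choice made after seeing the data, 0 when differences between samples of the same number were sign-flipped as a replicate block, where the smallest p is 0.125, and 0 with any sample left out, where it is 0.0571. The ratios of 15 to 16 pairs still did not overlap in these. Samples of the same number had correlations of deviations from -0.0699 to 0.0415, and 1 of 8 samples correlated best with its own number, so that the numbers were not taken as pairs. With the block, 5644 genes were called in place of 5796. Read numbers limit *Gli1*, *Hhip* and the ligand genes.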
